A study of Mus musculus with 12 samples.

Results

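The 10 chemokine genes described here, Ccl2, Ccl4, Ccl5, Ccl6, Ccl9, Cxcl1, Cxcl9, Cxcl10, Cxcl12 and Cxcl13, were taken by gene symbol from the 50600 genes counted in mouse liver, and all 10 passed the filter on low counts. The study measured polyadenylated liver RNA in 12 libraries of 3 groups with 4 replicates each. All mice were of the strain Rosa26-LSL-dCas9-p300, in which a fusion of nuclease-dead Cas9 to the histone acetyltransferase p300 lies behind a stop cassette at the Rosa26 locus. A guide RNA (gRNA) leads this fusion to a DNA site, where p300 acetylates histones. Adeno-associated virus (AAV), named AAV.Cbh.gRNA in the labels, brought in the gRNA. The PBS group received 0 viral genomes, the control gRNA group 1e+12 viral genomes per mouse with a non-targeting gRNA, and the Pdx1 gRNA group 1e+12 with a gRNA against Pdx1, a transcription factor gene of the pancreas. Mice of all groups were about 8 weeks old at tail vein injection, and liver was collected 2 weeks later and snap-frozen. Cre, which opens the stop cassette, is not described in the sources used here, nor are sex, batch or which mice shared a cage, so a p-value here covers library-to-library spread, which may be technical. Against PBS, both virus groups differ in the virus and in all that it carries, and these cannot be told apart. They also differ from the PBS group in sex-linked genes, through PBS libraries 2 and 3, as given below.

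Chemokines are small secreted proteins that draw leukocytes along a gradient by binding G protein-coupled receptors on them. Some, such as Cxcl9 and Cxcl10, are induced by interferons in hepatocytes, endothelial cells and macrophages of an inflamed liver, while others, such as Cxcl12, are made continuously. Many chemokine genes lie side by side in clusters that arose by duplication.

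Libraries held 11824767 to 22008046 assigned counts. Pdx1 itself was counted 0 times in each PBS library and in control gRNA libraries 1 to 3, 2 times in control gRNA library 4, and 26, 32, 54 and 256 times in Pdx1 gRNA libraries 1 to 4, in the order of the labels. PBS libraries 2 and 3 stood apart from the other 10 by sex-linked genes, with a male pattern where the other 10 had a female one. In CPM (counts per 1e+06 assigned counts) they held 2.61 and 3.64 of Xist and 80.8 and 70.0 of the Y-linked Ddx3y. The other libraries held 692 to 1347 of Xist and at most 0.187 of Ddx3y. The PBS group thus held both patterns and both virus groups only the female one. In a fit of all libraries, sex and virus therefore cannot be fully told apart against PBS. Fold changes of the 10 genes against PBS, and counts over the gene and cell marker lists, are also given without these 2. For the cell marker lists this alternative was chosen after seeing the data. Hepatocyte markers (Alb, Ttr, Apoa1, Apob, Cps1, Cyp2e1 and Serpina1c) were present in all libraries, with summed levels of 87894 to 121285 CPM in the PBS group, 50167 to 69163 CPM in the control gRNA group and 49101 to 102717 CPM in the Pdx1 gRNA group.

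The 10 genes differed widely in level. Levels of different genes were compared as CPM per kilobase of exon, with CPM scaled by TMM (trimmed mean of M values). After PBS, the mean level fell in the order Cxcl12 (48.4 CPM per kb), Ccl9 (24.6), Cxcl9 (6.61), Cxcl1 (5.12), Ccl6 (2.69), Cxcl10 (2.37), Ccl5 (2.21), Cxcl13 (1.75), Ccl2 (0.687) and Ccl4 (0.356). The step from Ccl9 to Cxcl9 was the only one in this order at which the ranges of neighbouring genes over libraries did not overlap. After control gRNA, Ccl9 led with 32.1 CPM per kb, followed by Cxcl12 (22.4), Cxcl9 (18.2), Cxcl10 (11.5), Ccl6 (10.6), Cxcl1 (8.43), Ccl5 (4.35), Ccl2 (2.69), Cxcl13 (2.31) and Ccl4 (1.85). After Pdx1 gRNA the first 7 genes had the same order, from Ccl9 (35.9 CPM per kb) and Cxcl12 (27.8) down to Ccl5 (1.95), ahead of Cxcl13 (1.29), Ccl2 (0.931) and Ccl4 (0.828). In both virus groups the ranges of all neighbouring genes overlapped.

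The comparison of control gRNA with PBS asks what virus delivery with a non-targeting gRNA did to these genes. After control gRNA, Cxcl10, Ccl4, Ccl6 and Ccl2 rose, by 4.76, 4.64, 3.92 and 3.8 times, and Cxcl12 fell to 0.463 times its PBS level. The other 5 did not pass the test. Here a call means an adjusted p below 0.05 in edgeR's quasi-likelihood test over 15219 tested genes, and only called genes are said to rise or fall. Thus 4 of 10 chemokine genes were called higher and 1 lower, where 16.3% of all tested genes were called higher and 15.8% lower (32.1% in all). Among the 4 called higher, Ccl4 had 0 PBS libraries above the cutoff of the filter on low counts. It entered the test through the virus groups. An unadjusted p under 0.05 was reached by 6 of the 10, and by 43.5% of all tested genes. The groups did not overlap for 5 of the 10 in the upward direction (16.5% of all tested genes) and for 1 downward (12.3%). The median log2 fold change was 1.20 for the 10 genes and -0.01 for all tested genes. Without PBS libraries 2 and 3, Cxcl10 alone was called higher and Cxcl12 stayed called lower. That setting leaves only PBS libraries 1 and 4, and in it 1118 of 16170 tested genes were called higher and 1140 lower. More or fewer cells of a type, and more or less RNA per cell, cannot be told apart in bulk liver RNA, here and in all results below.

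**Figure D1:**
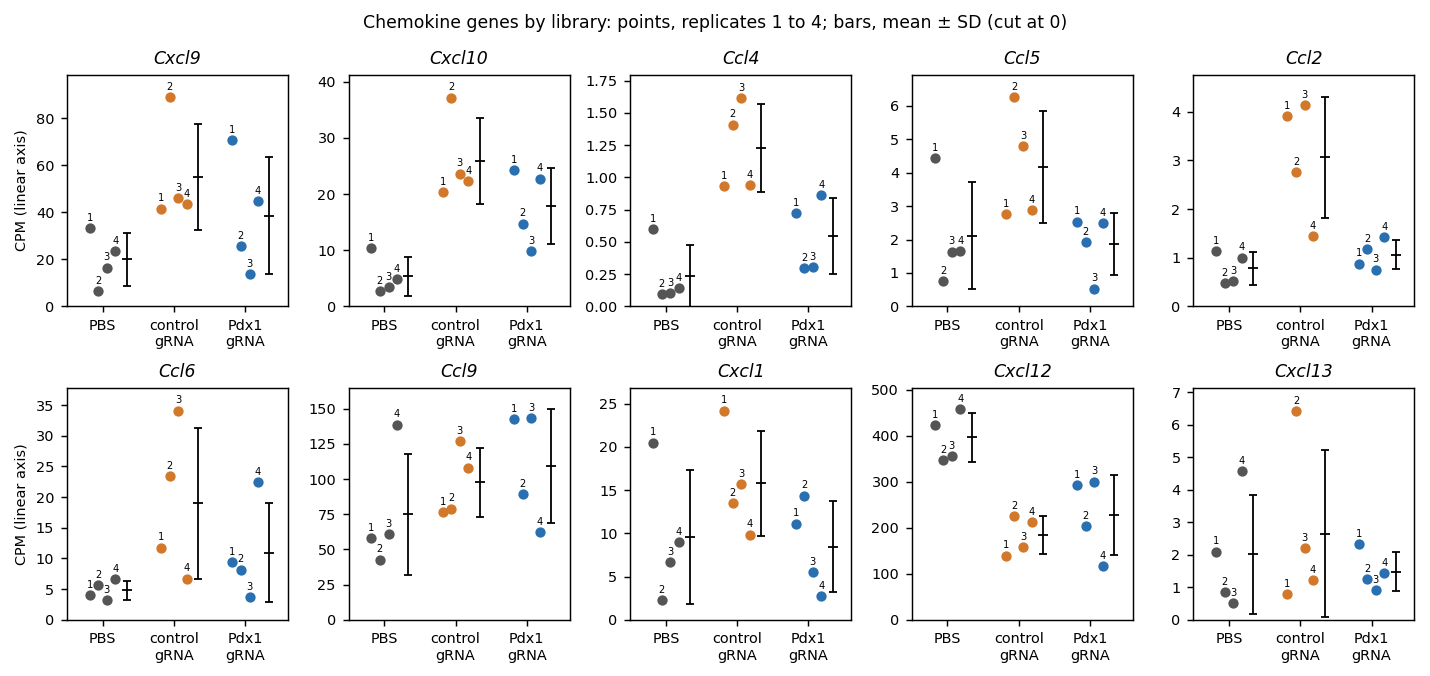
CPM of each of the 10 chemokine genes (vertical axis, linear, own scale per gene) in each library of the 3 groups (horizontal axis). Points are libraries with their replicate number and bars are the mean ± SD, cut at 0; the control gRNA points of Cxcl9, Cxcl10, Ccl4, Ccl2 and Ccl6 all lie above the PBS points, and those of Cxcl12 all lie below them.

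Cxcl9 and Cxcl10 are ligands of Cxcr3, the receptor of activated T cells and natural killer (NK) cells, and both are interferon-induced. They are neighbours on chromosome 5 of mm10, Cxcl9 at chr5:92321347-92328079 and Cxcl10 at chr5:92346638-92348889, both on the minus strand. The 250 bases before their start sites (RefSeq, GRCm38.p6, minus strand, 5′ to 3′) are shown because this pair moved together over libraries. They cover chr5:92328080-92328329 for Cxcl9 and chr5:92348890-92349139 for Cxcl10. Capitals mark matches to an interferon-stimulated response element (TTTC, then 2 bases of any kind, then TTTC), an NF-kB motif or a TATA box (TATAAA), each searched on both strands.
Cxcl9 promoter: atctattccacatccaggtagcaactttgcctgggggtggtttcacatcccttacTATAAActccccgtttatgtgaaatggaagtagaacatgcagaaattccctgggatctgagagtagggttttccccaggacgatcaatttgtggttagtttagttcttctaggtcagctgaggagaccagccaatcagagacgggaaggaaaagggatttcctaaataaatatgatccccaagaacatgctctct
Cxcl10 promoter: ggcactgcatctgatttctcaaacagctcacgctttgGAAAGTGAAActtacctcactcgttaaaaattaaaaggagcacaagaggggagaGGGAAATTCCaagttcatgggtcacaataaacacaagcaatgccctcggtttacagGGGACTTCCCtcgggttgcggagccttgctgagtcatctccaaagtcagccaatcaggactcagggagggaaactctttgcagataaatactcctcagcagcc
In Cxcl10 the first run in capitals is the response element, read on the other strand, 213 to 204 bases before the start, and the next 2 are NF-kB matches 159 to 150 and 103 to 94 bases before it. In Cxcl9 the run is a TATA match 195 to 190 bases before the start. Of 32851 RefSeq promoters searched over the same length, 2.98% held the response element, 3.90% the NF-kB motif and 12.4% the TATA match. A GAS motif (TTCNNNGAA), held by 7.02% of all promoters, was matched in none of the 7 chemokine promoters in the table. The NF-kB motif was matched in 3 of the 7, Ccl9, Cxcl1 and Cxcl10, of which only Cxcl10 was called in edgeR's test on all 12 libraries. These matches describe letters only.

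Cxcl10 measured 10.4, 2.66, 3.38 and 4.87 CPM in PBS libraries 1 to 4, 20.4, 37.2, 23.7 and 22.3 CPM after control gRNA and 24.2, 14.7, 9.82 and 22.8 CPM after Pdx1 gRNA. All control gRNA libraries lay above all PBS libraries, and of the Pdx1 gRNA libraries only library 3 lay below the highest PBS library. Its mean was 5.33 ± 3.52 CPM (SD, n = 4) in the PBS group, 25.9 ± 7.66 CPM in the control gRNA group and 17.9 ± 6.81 CPM in the Pdx1 gRNA group. Cxcl10 rose by 2.25 ± 0.41 on the log2 scale (± SE, edgeR adjusted p = 0.00199) after control gRNA and by 1.72 ± 0.40 (edgeR adjusted p = 0.0107) after Pdx1 gRNA. Cxcl10 was thus the one gene of the 10 called in both comparisons with PBS, which share the PBS libraries. Without PBS libraries 2 and 3, the log2 fold change after control gRNA was 1.73 (edgeR adjusted p = 0.0266), and that after Pdx1 gRNA was 1.22 and no longer called (edgeR adjusted p = 0.0948). Over all alternatives its adjusted p lay between 1.052e-06 and 0.0266 for control gRNA, and between 0.000374 and 0.0948 for Pdx1 gRNA. Cxcl10 overlaps Art3 on the opposite strand. Strand was not used in counting, so reads from the 2 genes cannot be told apart where their exons overlap, and Art3 was assigned 402 counts over all libraries.

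Cxcl9 measured 33.4, 6.37, 16.5 and 23.5 CPM after PBS, 41.6, 88.8, 46.1 and 43.6 CPM after control gRNA and 70.7, 25.5, 13.7 and 44.7 CPM after Pdx1 gRNA. The control gRNA libraries all lay above PBS, while the Pdx1 gRNA libraries spread across and beyond the PBS range. Its log2 fold change after control gRNA was 1.46 ± 0.53 and just missed the threshold (edgeR adjusted p = 0.0511). After Pdx1 gRNA it was 0.95 ± 0.52 (edgeR adjusted p = 0.211). The control gRNA call depended on the setting: over 21 alternatives 7 called Cxcl9 higher, and the adjusted p ran from 0.0153 to 0.269. The highest came from leaving out PBS libraries 2 and 3, where the log2 fold change was 0.93 after control gRNA and 0.43 after Pdx1 gRNA. In PBS libraries the lowest and highest Cxcl9 values differed by 5.24 times. Cxcr3, named here as the receptor of this pair although the naming rule did not select it, averaged 0.682 CPM after PBS and 0.685 CPM after control gRNA (log2 fold change -0.05 ± 0.61, edgeR adjusted p = 0.960).

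Ccl4 (macrophage inflammatory protein 1 beta) and Ccl5 (RANTES) draw T cells, NK cells and macrophages. Ccl4 (chr11:83662584-83664683, plus strand) was the lowest of the 10 genes in each group. It measured 0.599, 0.0950, 0.102 and 0.143 CPM after PBS, 0.933, 1.41, 1.61 and 0.942 CPM after control gRNA and 0.725, 0.295, 0.302 and 0.864 CPM after Pdx1 gRNA. Control gRNA libraries lay above all libraries of both other groups, and PBS library 1 lay far above the other PBS libraries. Ccl4 rose after control gRNA (log2 fold change 2.21 ± 0.57, edgeR adjusted p = 0.0112), and after Pdx1 gRNA its log2 fold change was 1.10 ± 0.60 (edgeR adjusted p = 0.203). The 4 PBS libraries together held 14 counts of it. None of them reached the filter's cutoff of 0.597 CPM, taken before TMM scaling, and Ccl4 entered the test through the virus groups. The change after control gRNA was 1.65 and not called without PBS libraries 2 and 3 (edgeR adjusted p = 0.105, range over alternatives 0.000901 to 0.105). Without PBS library 1, Ccl4 was called higher after Pdx1 gRNA as well (log2 fold change 2.21, edgeR adjusted p = 0.0163, range over alternatives 0.0163 to 0.599), and without PBS libraries 2 and 3 that change was 0.55.

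Ccl5 (chr11:83525778-83530518, minus strand) measured 4.44, 0.760, 1.64 and 1.65 CPM after PBS, 2.76, 6.26, 4.80 and 2.88 CPM after control gRNA and 2.54, 1.92, 0.529 and 2.49 CPM after Pdx1 gRNA. PBS library 1 reached into the control gRNA range, so those groups overlapped, whereas all Pdx1 gRNA libraries lay below all control gRNA libraries. Ccl5 passed neither test against PBS, with log2 fold changes of 0.94 ± 0.53 after control gRNA (edgeR adjusted p = 0.191) and -0.20 ± 0.54 after Pdx1 gRNA (edgeR adjusted p = 0.825). Without PBS library 1 it was called higher after control gRNA (log2 fold change 1.61, edgeR adjusted p = 0.0232, range over alternatives 0.0232 to 0.646). With PBS libraries 2 and 3 left out the values were 0.43 after control gRNA (edgeR adjusted p = 0.646) and -0.70 after Pdx1 gRNA (edgeR adjusted p = 0.449).

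Of the T and NK cell markers (Cd3d, Cd3e, Cd3g, Cd8a, Cd8b1, Cd4, Lck, Ncr1, Klrd1, Nkg7, Gzma, Gzmb and Prf1), 11 of 13 were tested. After control gRNA 2 of the 11 rose and 0 fell, 5 at an unadjusted p under 0.05. After Pdx1 gRNA 0 of the 11 were called, 1 at an unadjusted p under 0.05. Over all tested genes, 16.3% were called higher after control gRNA and 11.7% after Pdx1 gRNA. An unadjusted p under 0.05 was reached by 43.5% and 35.8% of them. With PBS libraries 2 and 3 left out, 1118 of 16170 tested genes were called higher and 1140 lower after control gRNA. After Pdx1 gRNA 728 were called higher and 549 lower. Of 13 markers tested in that setting, 0 were called in either comparison by edgeR. Summed over the 13, their level was 7.60 to 16.9 CPM in PBS libraries, 16.4 to 27.0 CPM in control gRNA libraries and 5.29 to 17.8 CPM in Pdx1 gRNA libraries, and no marker was at 0 throughout a group. Over the 12 libraries this sum correlated with Ccl5 at Pearson's r = 0.93 and with Cxcl10 at 0.72 (0.88 and 0.91 after centring each group), and with Ccl4 at 0.85 and Cxcl9 at 0.86. The summed level of dendritic cell markers, given below, correlated with the same genes at 0.84 for Ccl5, 0.83 for Cxcl10, 0.90 for Ccl4 and 0.88 for Cxcl9. The points share library and scaling, and the part of these cells in the results for Cxcl9, Cxcl10, Ccl4 and Ccl5 was not tested.

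Ccl2 (monocyte chemoattractant protein 1) binds Ccr2 and draws inflammatory monocytes out of blood into tissue. Ccl2 lies at chr11:82035571-82037453 on the plus strand, inside the antisense gene model Gm17268, which was assigned 0 counts. It measured 1.14, 0.475, 0.512 and 1.00 CPM after PBS, 3.92, 2.77, 4.14 and 1.44 CPM after control gRNA and 0.880, 1.18, 0.755 and 1.42 CPM after Pdx1 gRNA. The control gRNA libraries were above all libraries of both other groups, library 4 by a small margin, and the PBS and Pdx1 gRNA libraries overlapped. Ccl2 rose after control gRNA from 0.782 ± 0.338 to 3.07 ± 1.24 CPM (log2 fold change 1.93 ± 0.41, edgeR adjusted p = 0.00462), and was not called after Pdx1 gRNA (0.40 ± 0.43, edgeR adjusted p = 0.527). Leaving out PBS libraries 2 and 3 gave a change of 1.49, which missed the threshold (edgeR adjusted p = 0.0591, range over alternatives 0.000174 to 0.0591), and a change after Pdx1 gRNA of -0.02. Of the 4 PBS libraries 2 were above the filter's cutoff. Ccr2 rose with it, from a mean of 1.87 to 6.63 CPM after control gRNA (log2 fold change 1.80 ± 0.39, edgeR adjusted p = 0.00518), and was likewise not called without those 2 libraries (1.35, edgeR adjusted p = 0.0594, the highest of its alternatives).

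Ccl6 and Ccl9 are rodent chemokines that act through Ccr1 on monocytes, macrophages and neutrophils. Their genes are neighbours on the minus strand of chromosome 11, Ccl9 at chr11:83572919-83578636 and Ccl6 at chr11:83587882-83593087, with 9.25 kb between them. The 250 bases before their starts (RefSeq, GRCm38.p6, minus strand, 5′ to 3′) are set side by side because these neighbours had different patterns over libraries. They cover chr11:83593088-83593337 for Ccl6 and chr11:83578637-83578886 for Ccl9, with motif matches in capitals as above.
Ccl6 promoter: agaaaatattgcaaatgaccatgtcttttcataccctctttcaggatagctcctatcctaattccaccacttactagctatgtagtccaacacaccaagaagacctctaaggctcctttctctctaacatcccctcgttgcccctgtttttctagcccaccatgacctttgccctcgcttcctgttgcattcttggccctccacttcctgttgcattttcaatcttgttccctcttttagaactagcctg
Ccl9 promoter: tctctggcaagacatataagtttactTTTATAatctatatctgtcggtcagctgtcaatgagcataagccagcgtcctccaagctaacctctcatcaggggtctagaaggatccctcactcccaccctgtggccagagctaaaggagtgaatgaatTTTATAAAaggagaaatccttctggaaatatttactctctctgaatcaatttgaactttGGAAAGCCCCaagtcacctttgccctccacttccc
The Ccl9 sequence held TATA matches on both strands, of which 2 overlap between 94 and 87 bases before the start, and an NF-kB match on the opposite strand 35 to 26 bases before it. None of the 4 motifs was matched in the Ccl6 sequence.

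Ccl6 measured 3.96, 5.61, 3.18 and 6.58 CPM after PBS, 11.8, 23.4, 34.1 and 6.71 CPM after control gRNA and 9.37, 8.18, 3.70 and 22.5 CPM after Pdx1 gRNA. Control gRNA library 4 lay just above the highest PBS library while library 3 was 5.09 times as high as library 4, and Pdx1 gRNA libraries spread over 6.08 times. Ccl6 rose after control gRNA (log2 fold change 1.97 ± 0.56, edgeR adjusted p = 0.0186), and its change after Pdx1 gRNA was 1.18 ± 0.56 (edgeR adjusted p = 0.146). The call after control gRNA was lost in 5 of 21 alternatives, among them leaving out PBS libraries 2 and 3 (1.83, edgeR adjusted p = 0.129), PBS library 3 (1.82, edgeR adjusted p = 0.0548) and control gRNA library 3 (1.51, edgeR adjusted p = 0.0680). Over the 21, its adjusted p ran from 0.00161 to 0.129. The change after Pdx1 gRNA was 1.1 without PBS libraries 2 and 3. Ccl6 lies within the gene model E230016K23Rik on the opposite strand, which was assigned 7 counts over all libraries.

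Ccl9 measured 57.7, 42.7, 60.7 and 138.7 CPM after PBS, 76.2, 79.0, 127.1 and 108.2 CPM after control gRNA and 142.7, 89.0, 143.1 and 62.0 CPM after Pdx1 gRNA. PBS library 4 reached almost the highest values of the virus groups, and all 3 groups overlapped. Its log2 fold changes were 0.38 ± 0.36 after control gRNA (edgeR adjusted p = 0.445) and 0.54 ± 0.36 after Pdx1 gRNA (edgeR adjusted p = 0.30). Without PBS library 4, Ccl9 was called higher in both comparisons, by 0.86 (edgeR adjusted p = 0.0493) and 1.03 (edgeR adjusted p = 0.0363), the lowest adjusted p values of their alternatives. With PBS libraries 2 and 3 left out instead, its log2 fold changes were -0.04 and 0.13, so the first changed sign. The correlation of Ccl6 with Ccl9 over the 12 libraries was 0.14, and -0.17 after centring each group. Ccr1, their receptor, rose from a mean of 0.190 to 1.05 CPM after control gRNA (log2 fold change 2.32 ± 0.76, edgeR adjusted p = 0.0335). It lost its call in 7 of 20 alternatives (adjusted p 0.0169 to 0.205), among them the one without PBS libraries 2 and 3 (1.84, edgeR adjusted p = 0.205). The PBS libraries together held 11 counts of Ccr1 and 0 of them were above the filter's cutoff, so that Ccr1 entered the test through the virus groups.

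Of 8 monocyte and macrophage markers (Ly6c2, Adgre1, Cd68, Lyz2, Csf1r, Itgam, C1qa and Ctss), 3 rose after control gRNA and 0 were called after Pdx1 gRNA, where 1 had an unadjusted p under 0.05. Their summed level was 113 to 436 CPM in PBS libraries, 198 to 480.3 CPM in control gRNA libraries and 129 to 305 CPM in Pdx1 gRNA libraries. Of 6 dendritic cell markers, 2 rose after control gRNA, and the summed level was 10.7 to 28.8 CPM in PBS libraries, 27.2 to 37.2 CPM in control gRNA libraries and 15 to 30.6 CPM in Pdx1 gRNA libraries. Of 7 Kupffer cell markers (resident macrophages: Clec4f, Vsig4, Timd4, Cd5l, Marco, Folr2 and Cd163), 0 were called in any comparison with edgeR, 1 at an unadjusted p under 0.05 after control gRNA, and the sums overlapped widely (114 to 474, 149 to 657 and 149 to 473 CPM). Ccl6 correlated with the Kupffer sum at 0.77 and with the monocyte and macrophage sum at 0.78 over 12 libraries (0.88 and 0.86 within groups), whereas Ccl9 did so at 0.08 and 0.14. Ccl2 correlated with these sums at 0.40 and 0.61, with the dendritic cell sum at 0.86 and with the sum of cholangiocyte (bile duct cell) markers at 0.81. Spp1 made up most of the cholangiocyte sum in each library, with 361 of 407 CPM in control gRNA library 1. Of 5 tested cholangiocyte markers 3 rose after control gRNA. Krt19, Krt7 and Spp1 overlapped between the PBS and control gRNA groups, and Epcam and Sox9 did not. The counts called higher after control gRNA in these 4 lists stand beside 16.3% of all tested genes. Those at an unadjusted p under 0.05 stand beside 43.5% after control gRNA and 35.8% after Pdx1 gRNA. With PBS libraries 2 and 3 left out, edgeR called 1118 of 16170 tested genes higher and 1140 lower after control gRNA. After Pdx1 gRNA it called 728 higher and 549 lower. In that setting it called 0 markers of these 4 lists in either comparison with PBS. The part of these cells in the results was not tested.

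Cxcl1 (KC) is a neutrophil attractant that binds Cxcr2, and lies at chr5:90891241-90893115 on the plus strand. It measured 20.5, 2.28, 6.66 and 8.94 CPM after PBS, 24.2, 13.5, 15.7 and 9.86 CPM after control gRNA and 11.1, 14.4, 5.51 and 2.74 CPM after Pdx1 gRNA. The 3 groups overlapped, and PBS libraries alone differed by 8.99 times. Its log2 fold changes of 0.71 ± 0.58 after control gRNA (edgeR adjusted p = 0.377) and -0.20 ± 0.58 after Pdx1 gRNA (edgeR adjusted p = 0.830) were close to their errors, and were 0.08 and -0.82 without PBS libraries 2 and 3. Of 8 neutrophil markers (S100a8, S100a9, Ly6g, Retnlg, Csf3r, Mmp8, Ngp and Camp) 4 were tested. None of them was called in a comparison with PBS by edgeR, and 0 after control gRNA and 1 after Pdx1 gRNA had an unadjusted p under 0.05. Of all tested genes, 43.5% and 35.8% did. With PBS libraries 2 and 3 left out, 549 of 16170 tested genes were called lower after Pdx1 gRNA, among them 1 of 5 tested neutrophil markers. Summed over the 8, their level was 3.59 to 17.0 CPM in PBS libraries, 11.2 to 16.8 CPM in control gRNA libraries and 4.37 to 7.22 CPM in Pdx1 gRNA libraries, and 1 marker was at 0 in all Pdx1 gRNA libraries. For this sum the Pdx1 gRNA libraries lay below all control gRNA libraries, and the part of neutrophils in the Cxcl1 values was not tested.

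Cxcl12 (stromal cell-derived factor 1) is the ligand of Cxcr4 and Ackr3 and holds haematopoietic cells and lymphocytes in their niches. It lies at chr6:117168535-117181367 on the plus strand, alone among chemokine genes, and was the one gene of the 10 that fell after control gRNA. Its 250 bases before the start (chr6:117168285-117168534, plus strand, RefSeq, GRCm38.p6) are shown as a contrast to the Cxcl10 promoter, with no match to the 4 motifs.
Cxcl12 promoter: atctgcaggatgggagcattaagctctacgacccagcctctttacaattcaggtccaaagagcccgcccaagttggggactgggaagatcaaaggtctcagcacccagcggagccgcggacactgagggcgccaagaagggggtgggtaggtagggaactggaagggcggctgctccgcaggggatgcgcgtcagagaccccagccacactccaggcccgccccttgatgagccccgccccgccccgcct
Cxcl12 measured 423, 347, 356 and 458 CPM after PBS, 139, 224, 157 and 212 CPM after control gRNA and 292, 203, 299.9 and 116 CPM after Pdx1 gRNA. All 8 virus libraries lay below all 4 PBS libraries, and the 2 virus groups overlapped. Cxcl12 fell after control gRNA from 396 ± 53.8 to 183 ± 41.5 CPM (log2 fold change -1.11 ± 0.27, edgeR adjusted p = 0.00941), and was called lower in all 21 alternatives (adjusted p 0.000331 to 0.0292), including without PBS libraries 2 and 3 (-1.29, edgeR adjusted p = 0.0292). After Pdx1 gRNA the mean was 228 ± 86.4 CPM and the change of -0.80 ± 0.27 missed the threshold (edgeR adjusted p = 0.0523). In that comparison 7 of 21 alternatives called it lower, with adjusted p from 0.0159 to 0.114 over all of them, and it was -0.97 (edgeR adjusted p = 0.0903) without PBS libraries 2 and 3.

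The summed level of hepatocyte markers moved with Cxcl12 over libraries. After control gRNA 5 of the 7 fell and 0 rose, and after Pdx1 gRNA 2 of the 7 fell and 0 rose. The sum of the 7, given above by group, correlated with Cxcl12 at 0.89 over 12 libraries and at 0.82 within groups. Alb made up most of this sum in each library, with a mean of 69141 CPM in the PBS group. The markers did not all go together. In PBS library 1, Apob and Cps1 were the lowest of the group, and Ttr, Apoa1 and Serpina1c the highest. Of 8 sinusoidal endothelial markers (Stab1, Stab2, Lyve1, Clec4g, Fcgr2b, Oit3, Gpr182 and Kdr) 2 fell after control gRNA and 3 after Pdx1 gRNA, with sums of 219.8 to 582 CPM in PBS libraries, 163 to 300.1 CPM in control gRNA libraries and 131 to 245 CPM in Pdx1 gRNA libraries. Of 9 stellate cell and fibroblast markers (Lrat, Des, Reln, Rgs5, Colec11, Hgf, Dcn, Col1a1 and Col3a1) 2 fell in each comparison, with sums of 386 to 619.9, 299 to 795 and 195 to 369 CPM. Over all tested genes, 15.8% were called lower after control gRNA and 10.4% after Pdx1 gRNA. With PBS libraries 2 and 3 left out, edgeR called 1140 of 16170 tested genes lower after control gRNA and 549 after Pdx1 gRNA. In that setting 0 hepatocyte markers were called in either comparison, and 2 sinusoidal markers fell in each. The stellate and fibroblast markers that then fell were 0 after control gRNA and 2 after Pdx1 gRNA. No marker of these lists was at 0 throughout a group, and the part of these cells in the Cxcl12 result was not tested. The receptors of Cxcl12, named for their role, were not called after control gRNA: Cxcr4 averaged 2.11 CPM after PBS and 2.42 CPM after control gRNA, and Ackr3 0.858 and 0.598 CPM.

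Cxcl13 attracts B cells through Cxcr5 and lies at chr5:95956951-95961068 on the plus strand. It measured 2.10, 0.855, 0.512 and 4.58 CPM after PBS, 0.783, 6.42, 2.19 and 1.22 CPM after control gRNA and 2.33, 1.25, 0.906 and 1.42 CPM after Pdx1 gRNA. All groups overlapped, and values differed by 8.94 times within PBS and by 8.19 times within control gRNA. Its log2 fold changes against PBS were 0.36 ± 0.69 after control gRNA (edgeR adjusted p = 0.728) and -0.46 ± 0.71 after Pdx1 gRNA (edgeR adjusted p = 0.678). They were -0.36 and -1.17 without PBS libraries 2 and 3, so the first changed sign. An unadjusted p under 0.05 was reached by 43.5% of all tested genes after control gRNA and 35.8% after Pdx1 gRNA. Between the virus groups 6.03% reached it. Of 5 B cell markers, among them Cd79a, Ms4a1 and Pax5, 0 were called in any comparison by edgeR, and 0 had an unadjusted p under 0.05. Their sum was 3.23 to 15.2 CPM in PBS libraries, 4.33 to 20.2 CPM in control gRNA libraries and 5.60 to 10.5 CPM in Pdx1 gRNA libraries. It correlated with Cxcl13 at 0.89 over 12 libraries, and at 0.89 within groups. The libraries with the highest Cxcl13, control gRNA library 2 and PBS library 4, were thus among those highest in B cell markers, and the part of B cells in its values was not tested.

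**Figure D2:**
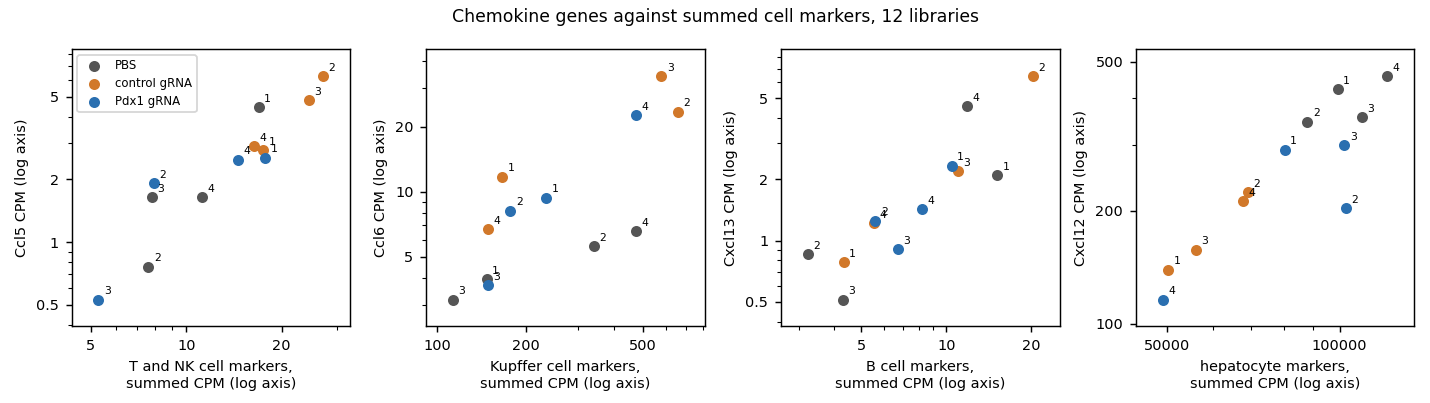
CPM of Ccl5, Ccl6, Cxcl13 and Cxcl12 (vertical axes, log) against the summed CPM of T and NK cell, Kupffer cell, B cell and hepatocyte markers (horizontal axes, log), 1 point per library with its replicate number. The pairs were picked after the values were seen, with correlations of 0.93, 0.77, 0.89 and 0.89 over 12 libraries. Alb makes up most of the hepatocyte sum. In the Ccl6 plot PBS libraries 2 and 4 lie low for their Kupffer sum.

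The comparison of Pdx1 gRNA with PBS, in which the virus carried the gRNA against Pdx1, gave fewer calls. Cxcl10 rose by 3.30 times, and no other chemokine gene was called. That is 1 of 10 higher and 0 lower by edgeR, where 11.7% of all tested genes were called higher and 10.4% lower (22.1% in all). At an unadjusted p under 0.05 there were 2 of 10, Cxcl10 higher and Cxcl12 lower, against 35.8% of all tested genes. DESeq2's Wald test and limma-voom each called these same 2. Of all 15219 tested genes, DESeq2's Wald test called 2043 higher and 2156 lower, and limma-voom 1688 and 1334. The groups did not overlap upward for 0 of the 10 (12.7% of all tested genes) and downward for 1, Cxcl12 (8.74%). The median log2 fold change was 0.47 for the 10 genes, 6 of them positive, and -0.06 for all tested genes. With PBS libraries 2 and 3 left out, 0 of the 10 were called, and all tested genes gave 728 higher and 549 lower calls against 1787 and 1583 with all libraries.

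Both virus groups received the same dose, so Pdx1 gRNA set against control gRNA asks what the targeted gRNA added. None of the 10 chemokine genes was called by edgeR, and none of the 15219 tested genes was (0%), while 918 genes (6.03%) had an unadjusted p under 0.05. DESeq2's Wald test called 6 genes higher and 8 lower over all genes and 0 of the 10, and limma-voom called 0 in all. Of the 10, 2 had an unadjusted p under 0.05, Ccl2 and Ccl4. The log2 fold changes of the 10 had a median of -0.80 with 8 below 0, against -0.01 for all tested genes. Ccl2 was 2.88 times lower after Pdx1 gRNA than after control gRNA in the fit (log2 fold change -1.53 ± 0.40, edgeR adjusted p = 0.809). The values of Ccl4 and Ccl5 were -1.11 ± 0.50 and -1.14 ± 0.53 (edgeR adjusted p = 0.809 for both). For these 3 genes all Pdx1 gRNA libraries lay below all control gRNA libraries, as they did for 3.17% of all tested genes, and for none of the 10 did they lie above (3.48%). The other log2 fold changes ran from -0.91 ± 0.58 for Cxcl1 to 0.31 ± 0.27 for Cxcl12. Of the T and NK cell markers, 0 of 11 were called by edgeR, 2 were lower at an unadjusted p under 0.05, and all 11 log2 fold changes were below 0. All 4 tested neutrophil markers were lower at an unadjusted p under 0.05, with groups that did not overlap, and 0 were called by edgeR. Of 16 tested chemokine receptors 5 were lower at an unadjusted p under 0.05, and 0 were called by edgeR, DESeq2 or limma-voom. The part of these cells in the values was not tested.

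**Figure D3:**
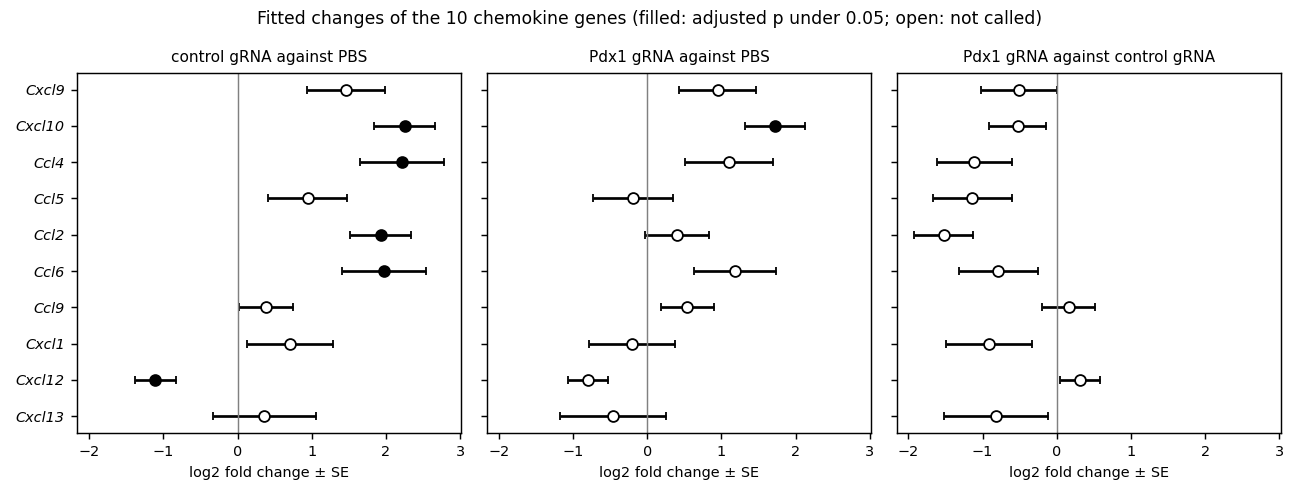
Log2 fold change ± SE (horizontal axis) of the 10 chemokine genes (vertical axis) in the 3 comparisons, from edgeR's fit. Filled points were called at an adjusted p under 0.05: Cxcl10, Ccl4, Ccl2, Ccl6 and Cxcl12 after control gRNA, Cxcl10 after Pdx1 gRNA, and no gene between the virus groups.

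Libraries of 1 group often took the same place for several chemokine genes. PBS library 1 was the highest of its group for 6 of the 10 genes, Ccl2, Ccl4, Ccl5, Cxcl1, Cxcl9 and Cxcl10, and PBS library 2 the lowest for 8. Control gRNA library 2 was the highest of its group for 5 genes and library 1 the lowest for 7. Pdx1 gRNA library 3 was the lowest of its group for 6 genes, among them Cxcl9, Cxcl10 and Ccl5, and the highest for Ccl9 and Cxcl12.

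Ccl4, Ccl5, Cxcl9 and Cxcl10 went together over libraries. Correlations are Pearson's r of log2 CPM over 12 libraries, with the value after centring each group in parentheses, given as a description of points that share library, depth and scaling. The 6 pairs among Ccl4, Ccl5, Cxcl9 and Cxcl10 had r from 0.68 to 0.93 (0.74 to 0.93). Among them were Cxcl9 with Cxcl10 at 0.89 (0.92) and Ccl5 with Cxcl10 at 0.68 (0.93), the latter closer within groups than between them. Ccl2 went with Ccl4 at 0.84 (0.55) and with Ccl6 at 0.78 (0.61). Of all 45 pairs 37 were positive, and 35 after centring. Cxcl12 had r from -0.75 with Ccl6 to 0.13 with Cxcl13. Its negative values with Cxcl10 and Ccl4, -0.69 and -0.67, were 0.04 and -0.13 within groups, while r of Cxcl12 with Ccl9 was 0.0031 over all libraries and 0.65 within groups.

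**Figure D4:**
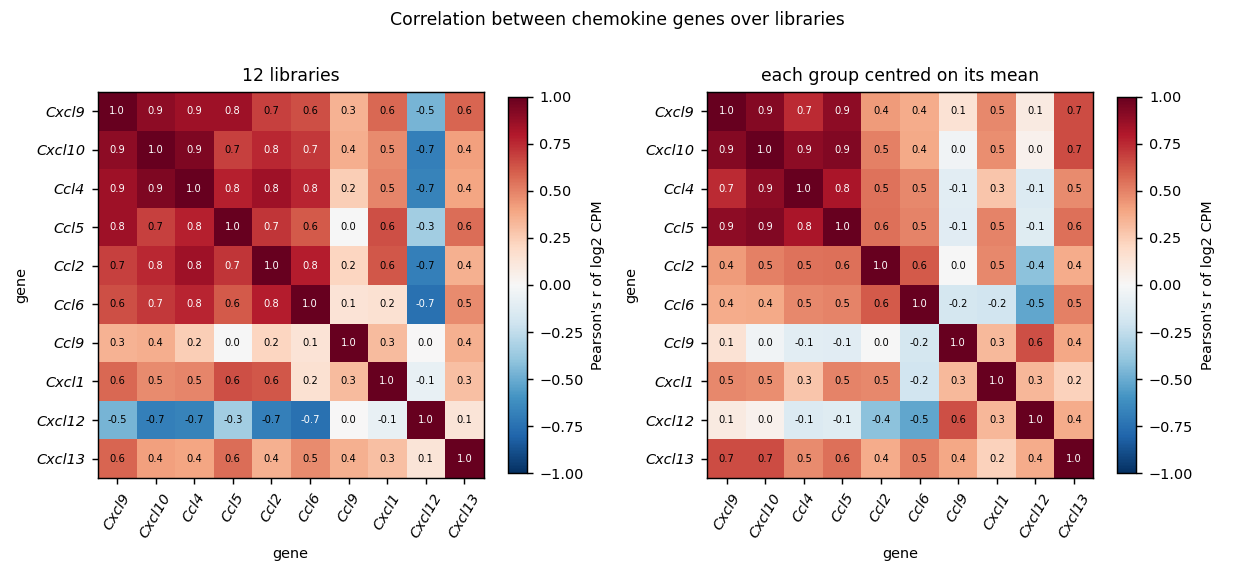
Pearson's r of log2 CPM for each pair of chemokine genes over 12 libraries (left) and after each group was centred on its mean (right), with colour from -1 (blue) to 1 (red). Ccl4, Ccl5, Cxcl9 and Cxcl10 form a block of high values in both panels, and the negative values of Cxcl12 with Cxcl10 and Ccl4 in the left panel are near 0 in the right panel.

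For each gene, the tested gene most alike in log2 CPM over the 12 libraries was sought among 13078 genes with a named symbol. They were Irf1 for Cxcl9 (r = 0.96), Rab11a for Cxcl10 (0.98), Pstpip1 for Ccl4 (0.97), Gpr132 for Ccl5 (0.97), Alox5ap for Ccl2 (0.95) and Ear2 for Ccl6 (0.95). For the others they were Slc2a13 for Ccl9 (0.86), Bckdhb for Cxcl1 (0.89), F7 for Cxcl12 (0.99) and Ighd for Cxcl13 (0.92). Irf1 is an interferon-induced transcription factor, F7 encodes coagulation factor VII of hepatocytes and Ighd the heavy chain of immunoglobulin D of B cells.

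By position, 8 of the 10 genes lie in 4 chemokine clusters. The cluster of Ccl5, Ccl9, Ccl6, Ccl3 and Ccl4 spans 138.9 kb of chromosome 11. In it Ccl6, Ccl3 and Ccl4 rose after control gRNA, and Ccl5 and Ccl9 did not pass the test. Ccl3 (macrophage inflammatory protein 1 alpha), the neighbour of Ccl4, measured a mean of 0.257 CPM after PBS and 1.34 CPM after control gRNA (log2 fold change 2.29 ± 0.47, edgeR adjusted p = 0.00364). The PBS libraries together held 14 counts of Ccl3 and 0 of them were above the filter's cutoff, so Ccl3 too entered the test through the virus groups. Its call was lost without PBS libraries 2 and 3 (2.01, edgeR adjusted p = 0.0502). In the 44.1 kb cluster of Cxcl9, Cxcl10 and Cxcl11, Cxcl10 was the one called, and Cxcl11, named as their neighbour and also a Cxcr3 ligand, averaged 4.45 CPM after PBS and 6.53 CPM after control gRNA (0.53 ± 0.44, edgeR adjusted p = 0.377). Of the 6 genes in the cluster of Ccl2 (270.1 kb), Ccl2 alone passed the filter. In the 146.6 kb cluster of Cxcl1, 3 of 7 genes passed it and 0 were called.

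**Figure D5:**
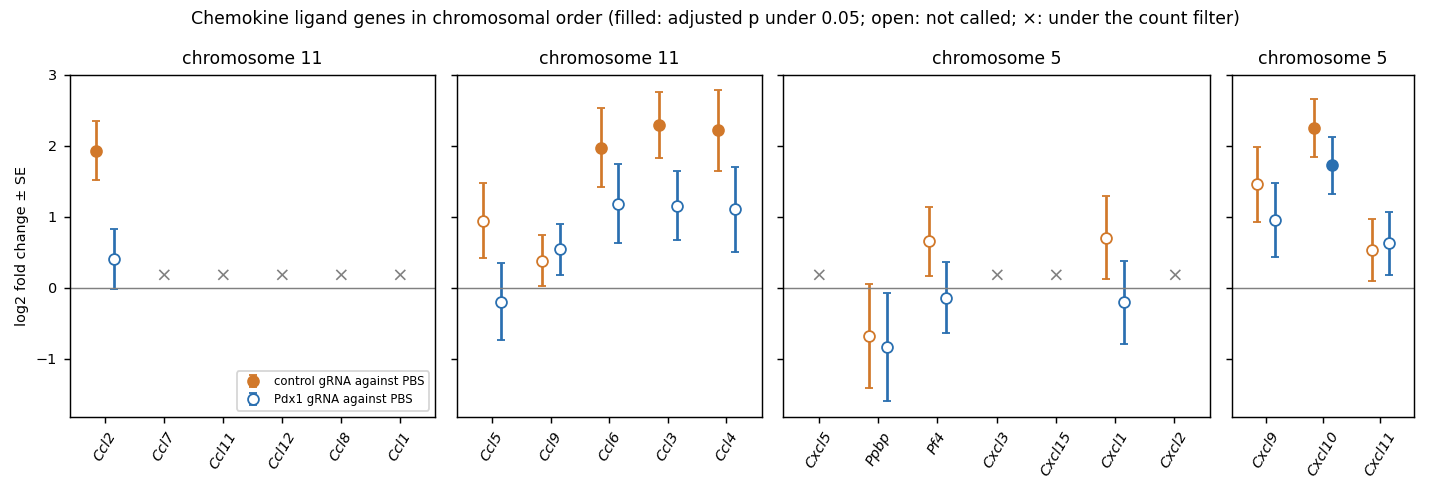
Log2 fold change ± SE (vertical axis) against PBS of the chemokine ligand genes of 4 clusters in chromosomal order (horizontal axis), for control gRNA (orange) and Pdx1 gRNA (blue). Filled points were called at an adjusted p under 0.05 and crosses mark genes under the count filter; Ccl6, Ccl3 and Ccl4 are filled beside the open points of Ccl5 and Ccl9.

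Of 30 other ligands, 29 were in the files and 12 tested. After control gRNA Ccl3 rose and Ccl25, a ligand for gut-homing T cells, fell from a mean of 10.8 to 6.51 CPM (log2 fold change -0.72 ± 0.23, edgeR adjusted p = 0.0319). These 1 higher and 1 lower of 12 stand beside the 16.3% and 15.8% of all tested genes called in those directions. The Ccl25 call was lost in 8 of 21 alternatives (adjusted p 0.00705 to 0.209). After Pdx1 gRNA 0 of the 12 were called by edgeR, where 11.7% of all tested genes were called higher and 10.4% lower. At an unadjusted p under 0.05 there were 2 of 12, against 35.8% of all tested genes. DESeq2 called 1 of the 12 lower, and 2156 of all 15219 tested genes. Once PBS libraries 2 and 3 were left out, 0 of 14 ligands tested in that setting were called after control gRNA. Of all 16170 genes tested there, 1118 were called higher and 1140 lower. The median log2 fold change of the 12 was 0.59 after control gRNA and 0.02 after Pdx1 gRNA.

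Of 24 chemokine receptors 16 were tested. After control gRNA 4 rose, among them Ccr2, Ccr1 and Cx3cr1, and 1 fell, Ackr4, where 16.3% of all tested genes were called higher and 15.8% lower. Cx3cr1, the fractalkine receptor of monocytes, rose from a mean of 4.19 to 10.1 CPM (log2 fold change 1.25 ± 0.39, edgeR adjusted p = 0.0288), and lost its call in 8 of 21 alternatives (adjusted p 0.000432 to 0.191). Ackr4, a scavenging receptor, fell from 2.74 to 1.11 CPM (-1.30 ± 0.37, edgeR adjusted p = 0.0189). With the replicate number as a block 2 receptors were called higher and 1 lower, where 2239 of 15219 tested genes were called higher and 1888 lower. Without PBS libraries 2 and 3 there were 0 higher and 2 lower after control gRNA, Ackr4 among them (-1.47, edgeR adjusted p = 0.0441), and 0 higher and 2 lower after Pdx1 gRNA. All 16170 genes tested there gave 1118 higher and 1140 lower calls after control gRNA, and 728 and 549 after Pdx1 gRNA. With all libraries, 0 of 16 were called by edgeR after Pdx1 gRNA, where 11.7% of all tested genes were called higher and 10.4% lower. At an unadjusted p under 0.05 there were 3 of 16, against 35.8% of all tested genes. DESeq2 and limma-voom called 0 higher and 2 and 1 lower, where they called 2156 and 1334 of 15219 genes lower. The median log2 fold change was 0.13 after control gRNA and -0.39 after Pdx1 gRNA.

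Of 19 genes of chemokine induction and processing 17 were tested. After control gRNA 3 rose and 1 fell, against the same 16.3% and 15.8% of all tested genes. Ifngr1, a chain of the interferon gamma receptor, rose from a mean of 21.4 to 47.9 CPM (log2 fold change 1.16 ± 0.24, edgeR adjusted p = 0.00384), and Relb, an NF-kB subunit, from 4.14 to 8.14 CPM (0.96 ± 0.32, edgeR adjusted p = 0.0369). Dpp4, a peptidase that trims Cxcl10 and Cxcl12, fell from 155 to 82.6 CPM (-0.91 ± 0.25, edgeR adjusted p = 0.0150). After Pdx1 gRNA Ifngr1 (1.33 ± 0.24, edgeR adjusted p = 0.00296) and Rela, an NF-kB subunit (0.48 ± 0.14, edgeR adjusted p = 0.0292), rose and Dpp4 fell (-0.83 ± 0.25, edgeR adjusted p = 0.0308). These 2 higher and 1 lower of 17 after Pdx1 gRNA stand beside 11.7% and 10.4% of all tested genes called in those directions. Once PBS libraries 2 and 3 were left out, Ifngr1, Relb and Dpp4 were not called after control gRNA, with log2 fold changes of 0.92, 0.47 and -0.95. All 3 calls after Pdx1 gRNA were lost as well, with 1.10 for Ifngr1 (edgeR adjusted p = 0.0506), 0.56 for Rela (edgeR adjusted p = 0.0826) and -0.87 for Dpp4 (edgeR adjusted p = 0.104). Over all 21 alternatives, the Relb call after control gRNA was lost in 9 (adjusted p 0.0133 to 0.280), and the Rela and Dpp4 calls after Pdx1 gRNA in 8 each (0.0115 to 0.105 and 0.00692 to 0.104).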

How the data were processed

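The values used here are fragment counts per gene, with 1 deposited table per library and no normalization. Per the file headers, the authors made these counts with featureCounts 1.4.6-p4 on paired reads, both ends mapped, without strand, over exons of GENCODE M13 summed by gene. The submitters' processing notes also name Trimmomatic 0.32, STAR 2.4.1a, DESeq2 1.22.0, R 3.5.1 and GRCm38/mm10.

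From these counts, genes under a minimum count of 10 were removed with edgeR's filterByExpr, and 12 libraries were fitted with a group factor in edgeR 4.0.16 (R 4.3.3, TMM factors, robust quasi-likelihood test, two-sided). Benjamini-Hochberg adjustment of p-values took in the whole set of 15219 tested genes. SE is the size of the log2 fold change divided by the square root of F. CPM used TMM-scaled totals, except for Xist and Ddx3y. Of 50600 gene IDs, 50376 matched a symbol. Pairs of libraries within a group differed far beyond counting noise (chi-square per degree of freedom at least 19.3), so none was merged. The fit was also run on simulated counts with known changes and the same dispersion for all genes. That run held no outlying libraries and no mix of sexes, so it does not cover these features of the data.

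Named are all 10 chemokine genes, genes of the ligand, receptor and induction lists called in any comparison, and for each of the 10 the gene most alike over libraries, leaving out predicted-gene names. Others are marked where named. A few genes selected by this rule are left out of the text. The 10 genes and the lists were chosen with earlier results of these data known. Promoters were taken from RefSeq, where 7 of the 10 genes matched by symbol. The alternatives tried were scaling by DESeq2 size factors or by upper quartiles, no filter, a minimum of 1 CPM in 4 libraries, the Wald test of DESeq2 1.42.0, limma-voom (limma 3.58.1), only the 8 libraries compared, a replicate block, each library left out, and PBS libraries 2 and 3 left out.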

Additional observations from a re-analysis of the deposited data

Results flagged for a closer look

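Over the 30 sets of 4 libraries formed by 10 chemokine genes and 3 groups, a single library stood far from the other 3 in 2 sets, where chance alone gives about 1 in 20. PBS library 1 held 0.599 CPM of Ccl4, from 10 counts, and the other PBS libraries held 0.0950 to 0.143 CPM, from 1 or 2 counts each. Control gRNA library 2 held 88.8 CPM of Cxcl9, and the other control gRNA libraries 41.6 to 46.1 CPM.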

How the results depend on the processing

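The log2 fold changes of the 10 chemokine genes took 210 values over the alternatives for control gRNA against PBS. Of these 191 kept their direction and side of the threshold, 7 lost a call (Ccl6 5 times, Ccl2 and Ccl4), 9 gained one (Cxcl9 7 times, Ccl5 and Ccl9) and 3 changed sign without being called. For Pdx1 gRNA against PBS there were 209 values (Ccl4 had none in 1 alternative), with 193, 1, 9 and 6 in the same order. Between the virus groups 209 of 210 kept both. Without PBS libraries 2 and 3, the chemokine genes called higher numbered 1 after control gRNA and 0 after Pdx1 gRNA, Ccl9 (-0.036) and Cxcl13 (-0.36) changed sign after control gRNA, and Ccl2 (-0.018) did so after Pdx1 gRNA. In that setting all tested genes gave 1118 calls higher and 1140 lower after control gRNA, against 2488 and 2399, and 728 and 549 after Pdx1 gRNA, against 1787 and 1583. The cause was not tested. For Pdx1 gRNA against PBS, 1 chemokine gene, Cxcl12, was called lower with DESeq2 size factors, with the filter of at least 1 CPM in at least 4 libraries, with DESeq2's Wald test and with limma-voom (1 each).

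With each library left out in turn, 3 to 6 chemokine genes were called higher and 1 lower after control gRNA, and 1 to 2 higher and 0 to 1 lower after Pdx1 gRNA. The second higher call came without PBS library 1 (Ccl4) or PBS library 4 (Ccl9), and the lower call, Cxcl12, without control gRNA library 1, Pdx1 gRNA library 1 or Pdx1 gRNA library 3. Signs turned, without a call, for Cxcl13 after control gRNA (-0.55 to 1.13, negative without control gRNA library 2). After Pdx1 gRNA they turned for Ccl5 (-0.46 to 0.48, positive without PBS library 1, and 0.10 without Pdx1 gRNA library 3), Cxcl1 (-0.59 to 0.48, positive without PBS library 1, and 0.079 without Pdx1 gRNA library 4) and Cxcl13 (-0.77 to 0.32, positive without PBS library 4). Between the virus groups Cxcl13 ran from -1.13 to 0.093, positive without control gRNA library 2. With each library left out, calls over all genes after control gRNA ran from 1728 to 3576 higher and from 1717 to 3299 lower, the most without PBS library 1. Calls over all genes after Pdx1 gRNA ran from 1157 to 2744 higher and from 959 to 2677 lower, the most without PBS library 1, with 994 lower without the filter and 800 lower in a fit of the 8 libraries alone. Upper-quartile factors moved the median log2 fold change of all tested genes after control gRNA by 0.10 and the share of calls that were higher from 50.9 to 61.8%. The signs of the 10 genes held under both scaling alternatives.

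The replicate number was not taken as pairing: 3 of 12 pairs of same-numbered libraries correlated above 0.1, and 2 of 12 libraries correlated best with their own number. With the replicate block, 5 chemokine genes were called higher after control gRNA (Cxcl9 added, 1.65, edgeR adjusted p = 0.0460) and 1 lower, and after Pdx1 gRNA 1 was called higher and 0 lower. Over all 15219 tested genes the block gave 2239 higher and 1888 lower calls after control gRNA, and 1451 and 1102 after Pdx1 gRNA. Depth limits Ccl4, with 14 counts over 4 PBS libraries, and Ccl2, with 43.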

Other observations

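The ratio of Cxcl10 to Cxcl9 counts ran from 0.205 to 0.418 in PBS libraries, from 0.419 to 0.513 in control gRNA libraries and from 0.343 to 0.718 in Pdx1 gRNA libraries. The ratio of Ccl6 to Ccl9 counts was 0.0475 to 0.131 in PBS libraries. It was 0.154, 0.296, 0.269 and 0.0620 in control gRNA libraries 1 to 4, and 0.0657, 0.0919, 0.0259 and 0.363 in Pdx1 gRNA libraries 1 to 4. Summed over the 10 chemokine genes, of which Cxcl12 and Ccl9 make up most, the level was 408 to 648 CPM after PBS, 322 to 483 CPM with control gRNA and 277 to 556 CPM with Pdx1 gRNA. Of 6 cholangiocyte markers (Krt19, Krt7, Epcam, Sox9, Spp1 and Cftr) 5 were tested. Of these 3 rose after control gRNA, where 16.3% of all tested genes were called higher. Summed over the 6, mostly Spp1, the level was 24.4 to 69.96 CPM after PBS, 59.0 to 407 CPM after control gRNA and 46.2 to 104 CPM after Pdx1 gRNA.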
